A study of Mus musculus with 6 samples.

Results

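Cytosolic ribosomal proteins are the protein subunits of the ribosome that translates nuclear-encoded mRNA, and their mRNA was followed here in mouse spleen after cadmium. Members were all array probes whose platform annotation gave a symbol of Rpl or Rps followed by a number, or Rplp0, Rplp1, Rplp2 or Rpsa. The 12 probes with symbols starting Rps6k were left out, since that family is named for ribosomal S6 kinases and is not part of the ribosome. That gave 96 probes for 65 genes, of 45281 probes and 19057 named genes on the array. By symbol, 47 probes for 30 genes belonged to the large subunit, 33 probes for 23 genes to the small subunit and 5 probes for 3 genes to the stalk. The other 11 probes were for 9 related genes, which are paralogs of ribosomal proteins (such as Rpl22l1, Rpl36al and Rps27l), a retrogene (Rps23rg1) and an Rps19-binding protein (Rps19bp1). RefSeq lists 64 of the 65 genes as protein coding and Rps4l as a transcribed pseudogene.

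The mice were of the outbred ICR strain, 28 days old, and had been given cadmium chloride in 200 µL saline under the skin once, 24 h earlier. Doses were 5 or 10 µmol/kg body weight, and controls received the same volume of saline, with 7 to 8 animals in a group. Each of the 3 groups had 2 Illumina bead arrays, 6 in all. Whether an array held RNA of a single mouse or a pool is not stated in the labels. The p-values therefore cover the array-to-array spread alone, which may be technical. In whole spleen, fewer cells of a type and less RNA per cell cannot be told apart.

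The ribosome has a large and a small subunit, and its stalk, built on Rplp0 with Rplp1 and Rplp2, recruits translation factors. In vertebrates most ribosomal protein mRNAs begin with a run of pyrimidines at the cap (the 5′ terminal oligopyrimidine, or TOP, motif), through which growth signalling by mTOR controls their translation. They are among the brightest mRNAs in lymphoid and erythroid tissue, and the mouse genome carries many near-identical processed copies of these genes, so a probe may take up signal from more than 1 copy. For that reason each probe is described on its own here.

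The arrays detected between 16265 and 18561 probes each (detection p under 0.05), and 18960 probes detected on at least 2 arrays were tested. Of the 17 probes for 12 spleen markers that were tested (B cell, T cell, macrophage and red cell genes such as Hba-a1 and C1qb), between 15 and 17 were detected on every array. Markers of pancreatic acinar cells, which make digestive enzymes and are no part of the spleen, separated the arrays into bright and dim ones. The 31 acinar probes for 26 genes made up 3.96% of all signal on saline array 2, 3.30% and 1.81% on the pair at 5 µmol/kg and 2.79% on the second array at 10 µmol/kg. They made up 0.00686% on saline array 1, with 7 of the 31 detected, and 0.0133% on array 1 at 10 µmol/kg, with 11 detected. These 2 arrays are called acinar-dim below.

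Start-site sequences are shown for genes on which the results below turn, so that the letters at the cap can be read. Each window runs from 70 bases before to 30 bases from the transcript start in RefSeq (GRCm38.p6), 5′ to 3′ on the transcript's strand, and capitals mark CTTTC or CTTTT or CTTCC on that strand.
Rpl7a (chr2:26910737-26910836, plus strand): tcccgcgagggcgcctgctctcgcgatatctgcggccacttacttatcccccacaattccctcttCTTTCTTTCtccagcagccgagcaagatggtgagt
Rps24, downstream start (chr14:24490683-24490782, plus strand): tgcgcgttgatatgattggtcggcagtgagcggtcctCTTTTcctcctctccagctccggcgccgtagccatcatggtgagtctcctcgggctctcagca
Rpl38 (chr11:114668510-114668609, plus strand): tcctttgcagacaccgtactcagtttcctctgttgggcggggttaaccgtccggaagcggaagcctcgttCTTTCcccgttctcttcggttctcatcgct
Rplp2 (chr7:141447581-141447680, plus strand): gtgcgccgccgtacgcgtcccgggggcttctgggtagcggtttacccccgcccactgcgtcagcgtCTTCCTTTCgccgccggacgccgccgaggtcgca
Rps13 (chr7:116334161-116334260, minus strand): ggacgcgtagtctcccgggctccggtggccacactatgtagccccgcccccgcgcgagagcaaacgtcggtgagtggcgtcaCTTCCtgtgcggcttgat
Rpl23 (chr11:97782410-97782509, minus strand): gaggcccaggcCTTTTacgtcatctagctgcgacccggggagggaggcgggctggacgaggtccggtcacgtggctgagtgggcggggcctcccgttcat
Rps2 (chr17:24719993-24720092, plus strand): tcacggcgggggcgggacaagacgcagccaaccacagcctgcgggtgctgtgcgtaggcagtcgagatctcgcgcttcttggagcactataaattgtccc

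In Rpl7a, Rpl38 and Rplp2 the capitals lie at or beside the start. In Rpl23 and at the shown Rps24 start they lie upstream of it, and in Rps13 downstream. The other Rps24 start, not shown, has CTTCC across it. The Rps2 window holds none of the 3 words. In RefSeq the genes Rpl7a, Rpl38 and Rps2 begin upstream of the windows shown (at 26910685, 114667818 and 24718121), so the starts shown for them lie inside the gene. The RefSeq table held promoters for 54 of the 65 genes, 64 windows in all, and the search was repeated from 50 bases before to 50 after the start. At least 1 match to CTTTC or CTTTT or CTTCC, words that can overlap each other, stood on the transcript's strand in 46 of the 64 windows (71.9%), against 36.4% of 32851 promoters of all genes. On the opposite strand the shares were 39.1% and 38.2%. CGGAAG, the core that ETS factors bind, stood on the transcript's strand in 23.4% of member windows and 5.11% of all, and on the opposite strand in 15.6% and 4.69%. TATAA stood on the transcript's strand in 9.38% and 6.81%, and on the opposite strand in 3.12% and 4.53%. A match of letters describes the window only.

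Ribosomal proteins were easily measured on these arrays. In all, 79 of the 96 probes (82.3%), for 58 genes, were detected on at least 2 arrays, against 41.9% of all probes. The other 17 probes were detected on no array, and with them Rpl6, Rpl14, Rpl39l, Rps20, Rps23, Rps23rg1 and Rpsa had no measured probe. Of the 79 probes, 72 were detected on all 6 arrays. The remaining 7 were detected on 2 to 5 arrays, and such a probe may have been kept because 1 group was high. Members that were kept held between 6.60% and 7.14% of the summed signal of an array, with 7.02% and 6.60% for saline, 7.01% and 7.14% at 5 µmol/kg, and 6.61% and 7.11% at 10 µmol/kg. The groups overlapped in this share.

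**Figure D1:**
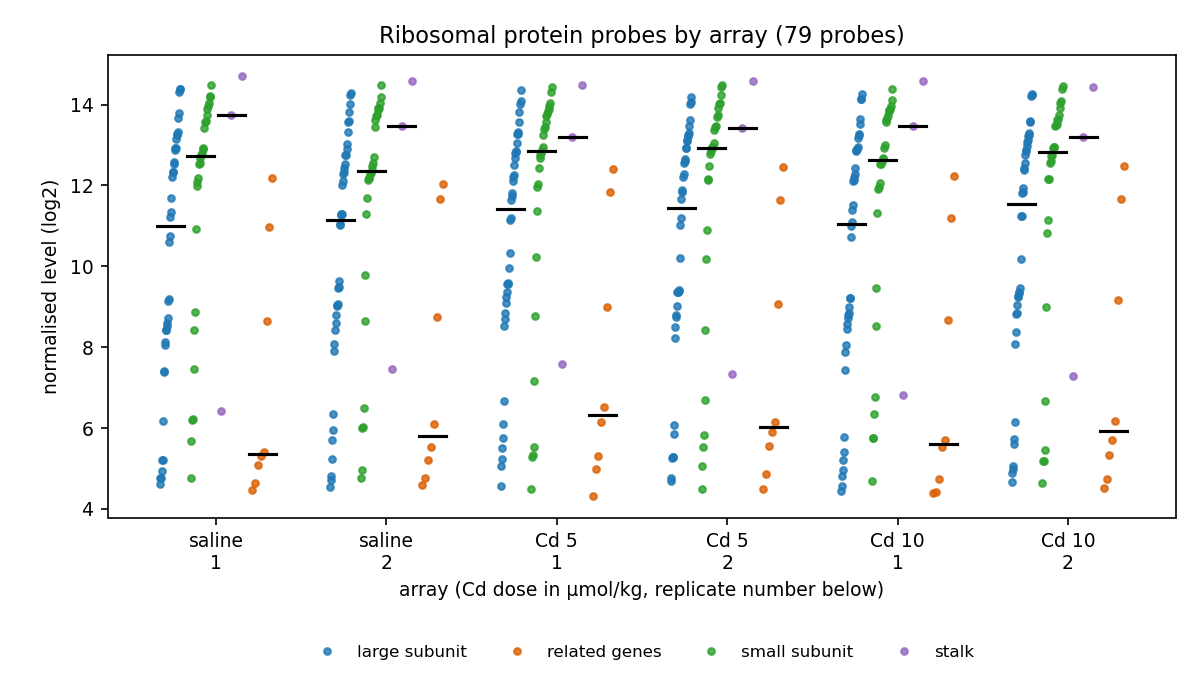
Normalised level (log2, vertical axis) of each of the 79 measured ribosomal protein probes on each of the 6 arrays (horizontal axis), coloured by class; a bar marks the median of a class. The probes spread over the whole scale on every array, and the spread over probes is alike in the 3 groups.

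The members spread over the whole scale of the array, from the detection limit to the top, and this spread was alike in the groups, as the plot of levels by array shows. Over the 79 probes, the group means of the normalised log2 level had an SD of 3.26 in saline, 3.21 at 5 µmol/kg and 3.27 at 10 µmol/kg. A probe's brightness depends on its sequence as well as on its mRNA, so the order of probes is no order of mRNA amounts. The median gap of a member between the 2 arrays of a group was 0.23 in saline, 0.14 at 5 µmol/kg and 0.31 at 10 µmol/kg on the log2 scale. Over all probes it was 0.36, 0.23 and 0.36.

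The deposited signals share 1 highest value, 26609, on every array, which leaves little room for a rise in the members closest to it. Rplp1, an acidic stalk protein, held that value on saline array 1, and Gpx1, a glutathione peroxidase that is no ribosomal protein, held it on the other 5. Rplp1 gave 26609 and 24509 on the saline arrays, 22937 and 24509 at 5 µmol/kg, and 24509 and 22273 at 10 µmol/kg. The groups overlapped, and the difference in level from saline was −0.11 ± 0.23 (SE, log2) at 5 µmol/kg and −0.13 ± 0.23 at 10 µmol/kg. The 100 highest probes of each array, which lay at 9247 or above, held between 19 and 22 member probes. Of the 69 probes that were among the 100 highest on all 6 arrays, 17 were members (24.6%), and 23 members for 21 genes were there on at least 1 array. With the 50 highest probes in place of 100, 14 members were counted, and with the 200 highest, 38.

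The brightest members of each subunit varied little. Rps29, a small zinc-binding protein of the small subunit, gave 22722 on both saline arrays, 21948 and 22937 at 5 µmol/kg, and 21192 and 21394 at 10 µmol/kg. Both arrays at 10 µmol/kg lay below saline, while those at 5 µmol/kg lay on either side of it. Rpl41, the very short basic peptide of the large subunit, gave 21483 and 19314 in saline, 20882 and 18675 at 5 µmol/kg, and 18074 and 18801 at 10 µmol/kg, so both arrays at the higher dose lay below saline and the lower dose overlapped it. Rpl38, which in mice is needed for the normal patterning of the axial skeleton, gave 20411 and 19832 in saline, 16495 and 17077 at 5 µmol/kg, and 17934 and 19154 at 10 µmol/kg. All 4 cadmium arrays were below both saline arrays for this probe, with differences in level of −0.26 ± 0.22 and −0.12 ± 0.22 (SE, log2), neither past the test. Rps9, of the small subunit, gave 18531 and 16827 in saline, 20411 and 21948 at 5 µmol/kg, and 17725 and 22457 at 10 µmol/kg. It was above saline on both arrays at 5 µmol/kg, where the difference in level was 0.26 ± 0.24. Just outside the 100 highest came Rpl23 (6923 to 9110 over the 6 arrays), Rpl27a (6852 to 8873) and Rpl28 (7237 to 8015).

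The first comparison asked which ribosomal protein mRNAs differ 24 h after the lower dose. No member passed the test at 5 µmol/kg against saline (limma with Benjamini-Hochberg adjustment over 18960 probes, threshold 0.05), and no probe of any gene did (0.0%). The smallest adjusted p among members, 0.492, was also the smallest among all probes. Unadjusted p-values under 0.05 belonged to 5 of 79 members (6.33%), all higher at 5 µmol/kg, against 9.99% of all probes (1089 higher and 805 lower). The share of members was below that of the array as a whole. One of the 5, a dim probe of Rpl21, was kept only through the 5 µmol/kg group. Among probes detected on all 6 arrays, 5 of 72 members had such a p in a fit of those probes, against 1553 of 12941 probes in all. Member levels lay mostly above saline: 56 of 79 were higher (70.9%, against 50.7% of all probes), with a median difference of 0.21 on the log2 scale, beside 0.0079 over all probes. Taking 1 probe for each of the 58 genes gave a median of 0.107, leaving out saline array 1 gave 0.136, and all 96 probes with no filter gave 0.058. The groups did not overlap for 33 members on the higher side (41.8%, against 24.2% of all probes) and for 10 on the lower side (12.7%, against 24.1%). The 33 included that Rpl21 probe and Rpl22l1, which also would not have been kept without its detection at 5 µmol/kg. The 10 included an Rps24 probe that would not have been kept without its detection in saline. The difference ranged from −1.30 for a dim probe of Rps13, which was −0.58 without saline array 1 and −2.02 without the other, to 1.76 for Rpl7a.

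Rpl7a, of the large subunit, showed the largest difference from saline among members at both doses. Its signal was 331 and 372 on the saline arrays, 1271.5 and 1172 at 5 µmol/kg, and 577 and 1141 at 10 µmol/kg. All 4 cadmium arrays were above both saline arrays, and array 1 at 10 µmol/kg, the acinar-dim one, was the lowest of the 4. The level was 8.52 ± 0.11 in saline, 10.27 ± 0.08 at 5 µmol/kg and 9.69 ± 0.68 at 10 µmol/kg (log2, SD, n = 2). The difference at 5 µmol/kg was 1.76 ± 0.35 (SE), with a limma p of 0.0016 before adjustment and 0.492 after. Without saline array 1 and array 1 at 10 µmol/kg it was 1.67. That fit has 1 residual degree of freedom, from the pair of arrays at 5 µmol/kg, and assumes that the lone arrays vary like that pair.

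The other 4 members with an unadjusted p under 0.05 were probes of Rps2, Rpl24, Rpl21 and the related gene Rps4l. Rps2, at the small subunit's mRNA entry, had 2 probes. The dimmer gave 6029 and 5743 in saline, 10781 and 8419 at 5 µmol/kg, and 7727 and 7924 at 10 µmol/kg, with all cadmium arrays above saline and the lower dose highest. Its difference in level at 5 µmol/kg was 0.69 ± 0.24 (SE, log2). The brighter Rps2 probe was 10962 and 12619 in saline, 13894 and 13266 at 5 µmol/kg, and 12490 and 11654 at 10 µmol/kg, so it lay above saline only at the lower dose, by 0.21.

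Rpl24, which in the assembled ribosome reaches from the large to the small subunit, gave 1711 and 2045 in saline, 3180 and 3212 at 5 µmol/kg, and 2042 and 3592 at 10 µmol/kg. Its difference in level at 5 µmol/kg was 0.77 ± 0.32 (SE, log2), and at 10 µmol/kg the arrays lay on either side of the upper saline value. Rps4l, an Rps4 copy, gave 18.5 and 21.2 in saline, 55.3 and 44.3 at 5 µmol/kg, and 10.3 and 36.5 at 10 µmol/kg. It was 0.88 ± 0.35 above saline in level at 5 µmol/kg, and the arrays at 10 µmol/kg fell on both sides of saline. A dim probe of Rpl21 was not detected in saline or at 10 µmol/kg and gave 21.7 and 22.7 at 5 µmol/kg. That is at least 1.46-fold higher at 5 µmol/kg than in saline, with the detection limit of each array standing in for the undetected signal. The other 2 measured Rpl21 probes, with signals between 10.5 and 37.9, differed by 0.05 and 0.38 in level.

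**Figure D2:**
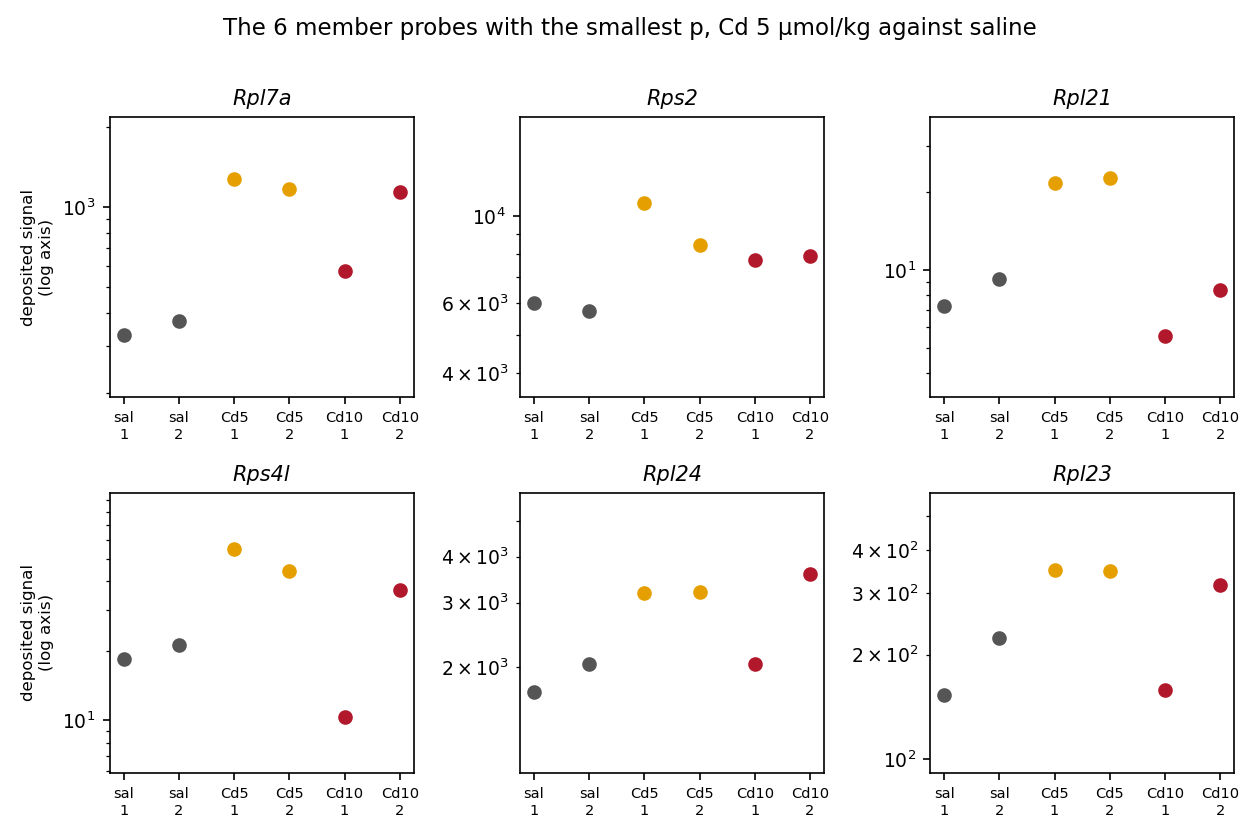
Deposited signal (vertical log axes, each panel on its own range) on each array (horizontal axis; sal, saline; Cd5 and Cd10, cadmium chloride at 5 and 10 µmol/kg; replicate number below) for the 6 member probes with the smallest p at 5 µmol/kg against saline. Both arrays at 5 µmol/kg lie above both saline arrays in every panel, while array 1 at 10 µmol/kg is near saline for Rpl24 and the Rpl23 probe and below it for Rps4l. Rpl21 was not detected in saline or at 10 µmol/kg.

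The members below saline at 5 µmol/kg without overlap were probes of Rpl3, Rpl23, Rpl36a, Rpl37, Rpl38, Rplp2, Rps13, Rps15a, Rps24 and Rps26. Rplp2, a stalk protein, gave 13768 and 11298 in saline, 9400 and 10853 at 5 µmol/kg, and 11346 and 9400 at 10 µmol/kg. Its difference in level was −0.30 ± 0.25 (SE, log2) at 5 µmol/kg and −0.16 without saline array 1. Rpl37 gave 13037 and 14364 in saline, 12053 and 11346 at 5 µmol/kg, and 11654 and 12053 at 10 µmol/kg, so all 4 cadmium arrays were lower, by 0.23 and 0.21 on the log2 scale in the mean. Rps15a gave 58.8 and 49.7 in saline, 30.4 and 41.1 at 5 µmol/kg, and 66.1 and 28.1 at 10 µmol/kg, where the arrays fell on both sides of saline.

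The difference at 5 µmol/kg was also taken by rank of brightness. For the 21 members among the 100 brightest probes by mean level, the median difference in level was −0.026, with 9 of 21 higher. It was 0.26 for the next 26 members, down to rank 1000, 0.50 for the 14 after them, down to rank 5000 and all higher, and 0.20 for the last 18. Non-members at the same ranks had medians of 0.0050, −0.0026, 0.0091 and 0.0070. Without saline array 1 the member medians were 0.023, 0.30, 0.25 and 0.021 in the same order, with 12 of 21, 21 of 26, 12 of 14 and 10 of 18 higher. Without saline array 2 they were −0.072, 0.14, 0.82 and 0.29. The plot of differences against rank shows members of the large and the small subunit on both sides of the grey band. By class, the median was 0.24 for 40 large-subunit probes, 0.088 for 28 small-subunit probes, −0.11 for 3 stalk probes and 0.33 for 8 probes of related genes. Among the stalk probes, Rplp0, the stalk's base, was dim and gave 70.5 and 162 in saline, 175 and 145 at 5 µmol/kg, and 97.5 and 142 at 10 µmol/kg, overlapping saline at both doses.

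**Figure D3:**
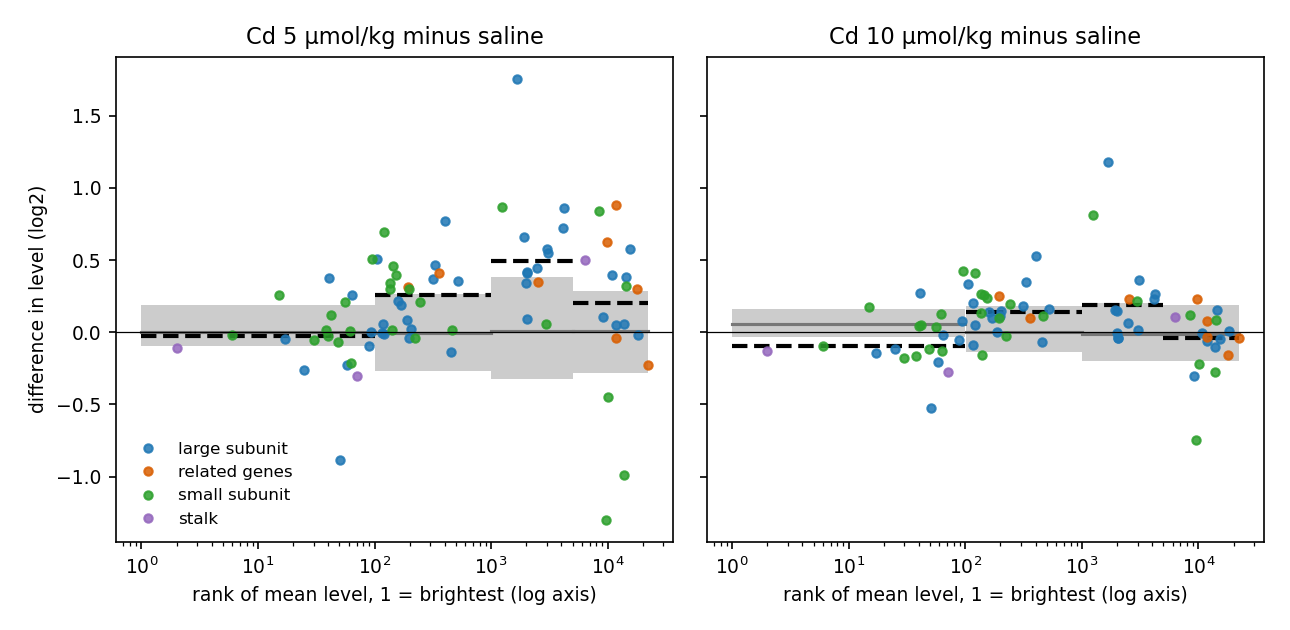
Difference in level from saline (log2, vertical axis) of each member probe against its rank by mean level over the 6 arrays (horizontal log axis, 1 is the brightest), at 5 µmol/kg (left) and 10 µmol/kg (right). Grey bands and lines give the quartiles and median of non-member probes in 4 bins that end at rank 100, 1000, 5000 and the last member; dashed lines give the member medians. At 5 µmol/kg the member median is −0.026 among the 100 brightest and 0.50 between ranks 1000 and 5000 (0.023 and 0.25 without saline array 1).

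The acinar markers and some other lists were looked at in the same comparison. The summed acinar signal was 422 and 261070 in saline and 217240 and 119070 at 5 µmol/kg, with 30 of 31 probes higher at 5 µmol/kg in the mean. Among 13 probes for 8 erythroid genes, 10 were higher at 5 µmol/kg (76.9%, against 50.7% of all probes), with a median of 0.999 on the log2 scale. An unadjusted p under 0.05 belonged to 6 of the 13, where 9.99% of all probes had one. The median deviation from each probe's own 6-array mean was −0.75 and 0.019 on the saline arrays, and 0.68 and 0.25 at 5 µmol/kg. The summed signal of all 13, mostly from Hba-a1 and Slc4a1 near the top of the scale, was 58122 and 56707 in saline and 56546 and 57072 at 5 µmol/kg. Rhag, an erythroid membrane protein, gave 139 and 147 in saline, 603 and 370 at 5 µmol/kg, and 265 and 371 at 10 µmol/kg. On every array 12 or 13 of the 13 erythroid probes were detected. The part of the erythroid genes in the ribosomal protein differences was not tested. With the mean acinar level as a covariate the member median at 5 µmol/kg was 0.13, and without saline array 1 and array 1 at 10 µmol/kg it was 0.14.

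The second comparison asked the same of the higher dose. No member passed the test at 10 µmol/kg against saline (smallest limma adjusted p among members 0.99998), nor did any other probe (0.0%). Only Rpl7a had an unadjusted p under 0.05, which is 1.27% of members against 1.6% of all probes (201 higher and 103 lower). Its difference in level was 1.18 ± 0.35 (SE, log2), with a limma p of 0.012 before adjustment. Of the 79 members 48 were higher (60.8%, against 48.9% of all probes), with a median of 0.076 beside −0.0080 over all probes. The groups did not overlap for 11 probes on the higher side (13.9%, against 12.1%) and 9 on the lower side (11.4%, against 10.9%), both close to the share of the whole array.

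The 11 higher probes were of Rpl7a, Rpl22, Rpl26, Rpl27a (2 probes), Rpl28, Rpl36al, Rps2, Rps7, Rps14 and Rps16. The 9 lower ones were of Rpl3, Rpl22l1, Rpl30, Rpl37, Rpl38, Rpl41, Rps12 (2 probes) and Rps29. Rpl22l1 lay near the detection limit, detected on 1 saline array and not at 10 µmol/kg, so no fold could be bounded. Rps7, of the small subunit, gave 7567 and 6697 in saline, 9698 and 10591 at 5 µmol/kg, and 8141 and 11244 at 10 µmol/kg. All 4 cadmium arrays were above saline, by 0.51 ± 0.26 and 0.43 ± 0.26 in level (SE, log2). A dim probe of Rpl30 gave 57.0 and 66.0 in saline, 85.8 and 52.2 at 5 µmol/kg, and 39.2 and 55.3 at 10 µmol/kg. Both arrays at the higher dose lay below saline, by 0.30 in mean level, and those at the lower dose on either side of it. The brighter Rpl30 probe gave 545 and 502 in saline and 427 and 605 at 10 µmol/kg, overlapping saline, with a difference of −0.041. Rps3, whose protein also cuts damaged DNA, had a probe at 453 and 868 in saline, 1184 and 1138 at 5 µmol/kg, and 691 and 1787 at 10 µmol/kg. The difference of this probe at 10 µmol/kg, 0.81 ± 0.50, was the largest after Rpl7a, and its arrays overlapped those of saline. Without saline array 1 the difference was 0.35. A brighter Rps3 probe gave 4612 and 4482.5 in saline and 3961 and 5966 at 10 µmol/kg, also overlapping, with a difference of 0.096.

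Array by array, the higher dose had no single direction. For array 1 at 10 µmol/kg minus saline array 1, both acinar-dim, the median member difference was −0.034, with 35 of 79 higher. For array 2 minus array 2, both acinar-bright, it was 0.083, with 45 of 79 higher. The 2 arrays at 10 µmol/kg differed from each other by −0.25 (array 1 minus array 2), with 14 of 79 members higher on array 1, which is more than either dose's median from saline. The arrays at 5 µmol/kg were 0.14 and 0.10 above saline array 2 and 0.19 and 0.15 above saline array 1 in the member median. Without array 2 at 10 µmol/kg the median of that dose against saline was −0.059, without saline array 1 it was −0.015, and without array 1 at 10 µmol/kg it was 0.23. The median between the doses was −0.030 without array 1 at 10 µmol/kg.

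The last comparison set the doses against each other. No member passed the test at 10 against 5 µmol/kg (smallest limma adjusted p among members 0.980). Of all probes 1 did (0.00527%), for Tmem14c, a mitochondrial membrane protein of heme synthesis named here after its values were seen. It was not detected at 10 µmol/kg and was at least 111-fold lower there (limma adjusted p = 0.0327). The only member with an unadjusted p under 0.05 (1 of 79, 1.27%, against 1.03% of all probes) was the dim probe of Rpl21, at least 1.43-fold lower at 10 µmol/kg, which was kept only because it was detected at 5 µmol/kg. Among probes detected on all 6 arrays, 0 of 72 members had such a limma p, against 0.981% of all. In level, 55 of 79 members were lower at the higher dose and 24 higher (30.4%, against 49.4% of all probes). The median was −0.10 beside −0.0054 over all probes. Leaving out array 1 at 10 µmol/kg, the member median was −0.030, with 39 of the 79 higher. The groups did not overlap for 19 members on the lower side (24.1%, against 15.9%) and 5 on the higher side (6.33%, against 14.6%), the latter being probes of Rpl27a, Rpl38, Rps14, Rps24 and Rps26. Among the 19 were that Rpl21 probe and Rpl22l1, both kept only because they were detected at 5 µmol/kg. The Rps24 probe among the 5 was not detected at 5 µmol/kg. Rps4l was −0.80 ± 0.35 and Rpl7a −0.58 ± 0.35 in level (SE, log2), and without the acinar-dim arrays these were −0.32 and −0.096. The 3 comparisons share arrays with each other, so their values are not independent. An F test over the 3 groups called no probe (0.0%, with a smallest limma adjusted p among members of 0.967), and 693 probes had an unadjusted p under 0.05 in it.

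Probes of the same gene often lay on opposite sides of 0, among ribosomal proteins as among other genes. Of the 58 genes measured, 16 had at least 2 probes, and in each of the 3 comparisons 8 of the 16 had probes on opposite sides of 0. Among 3812 genes of the array with several probes the shares were 42.4% at 5 µmol/kg, 49.8% at 10 µmol/kg and 41.1% between the doses. The widest ranges at 5 µmol/kg belonged to Rps24 (1.83 on the log2 scale), Rpl23 (1.75) and Rps13 (1.597), followed by Rpl38 (0.98).

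Rpl23, whose start window is shown above, had 3 measured probes. The brightest gave 21192 and 16495 in saline, 10282 and 9972 at 5 µmol/kg, and 19545 and 8606 at 10 µmol/kg. It was higher on both acinar-dim arrays than on the other 4, and its difference in level at 5 µmol/kg was −0.88 ± 0.40 (SE, log2), or −0.70 without saline array 1. The middle probe gave 9110 and 6923 in saline, 7096 and 8796 at 5 µmol/kg, and 7456 on both arrays at 10 µmol/kg, and the groups overlapped. The dimmest gave 153 and 223 in saline, 349 and 348 at 5 µmol/kg, and 158 and 318 at 10 µmol/kg, the opposite order, with a difference of 0.86 ± 0.36 at 5 µmol/kg, or 0.61 without saline array 1.

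Rps13, of the small subunit, had a bright and a dim probe. The bright one gave 7096 and 5295 in saline, 7521 and 7567 at 5 µmol/kg, and 5893 and 7698 at 10 µmol/kg, with a difference in level of 0.30 ± 0.27 (SE, log2) at 5 µmol/kg, or 0.51 without saline array 1. The dim one gave 160 and 48.8 in saline, 24.5 and 30.9 at 5 µmol/kg, and 93.4 and 21.0 at 10 µmol/kg, with a difference of −1.30 ± 0.62. Without saline array 1 that difference was −0.58, and without saline array 2 it was −2.02. Its 2 highest signals were those of the acinar-dim arrays. For Rps24, whose gene is mutated in some patients with Diamond-Blackfan anaemia, the bright probe stayed between 12773 and 15083 on the 6 arrays. A dim probe gave 35.7 and 74.2 in saline, 127 and 88.2 at 5 µmol/kg, and 38.2 and 85.7 at 10 µmol/kg. The remaining one gave 57.5 and 10.5 in saline and 38.7 on array 1 at 10 µmol/kg, and was not detected on the other 3 arrays. Its 2 highest signals were on the acinar-dim arrays, where the former dim probe had its 2 lowest. The remaining probe was at least 1.64-fold lower at 5 µmol/kg than in saline, a bound that rests on saline array 1, since saline array 2 lay near the detection limit. That probe would not have been kept without its detection in saline. Rpl38 had a dim probe at 154 and 255 in saline, 401 and 284 at 5 µmol/kg, and 218 and 255 at 10 µmol/kg, which was 0.72 above saline in level at 5 µmol/kg, where the bright probe was 0.26 below.

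**Figure D4:**
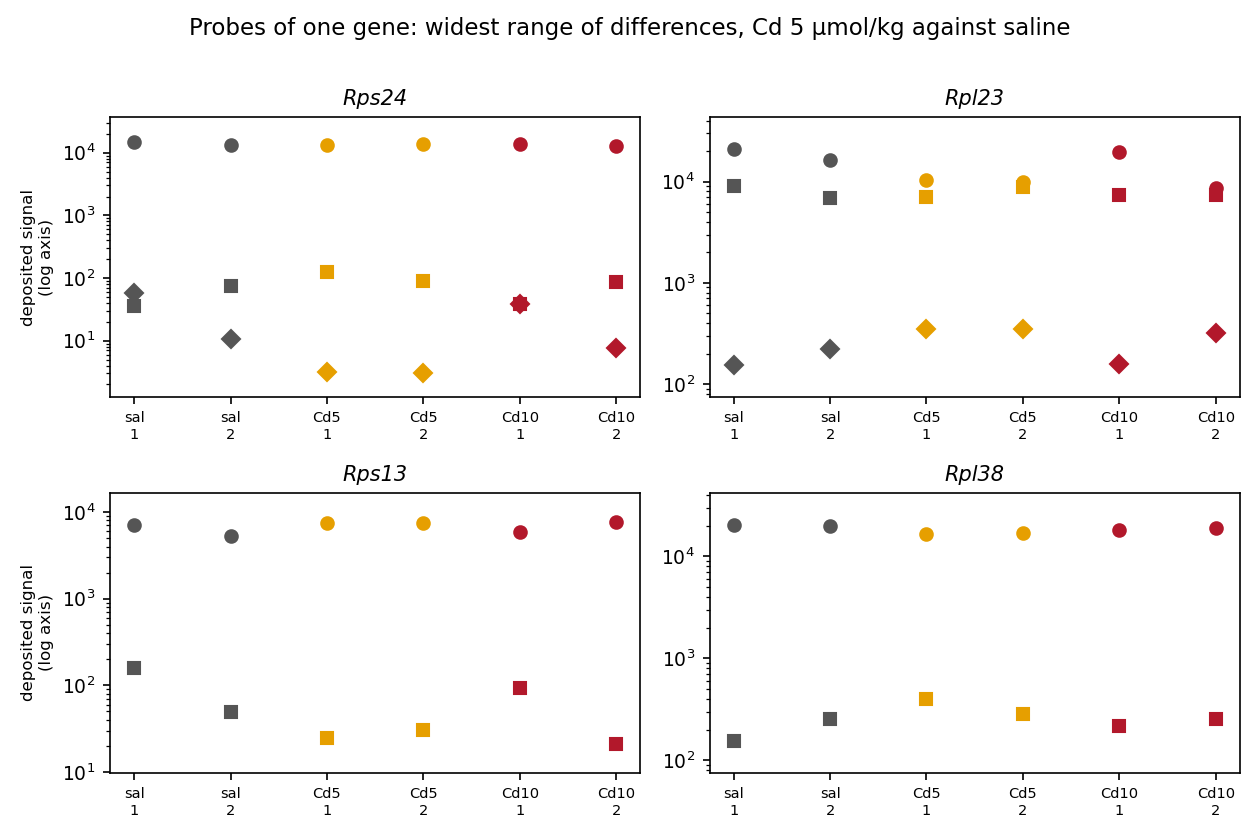
Deposited signal (vertical log axes) on each array (horizontal axis, labelled as in the plot of the smallest p) for the measured probes of Rps24, Rpl23, Rps13 and Rpl38; each marker shape is 1 probe. The bright probes of Rps24, Rps13 and Rpl38 vary less than their dim ones, and 1 dim probe of Rps24, like the brightest of Rpl23, is highest on the 2 acinar-dim arrays, where another probe of the same gene is lowest.

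On the acinar-dim arrays many probes of all genes stood apart from the other 4 arrays, and members did so mostly on the low side. On both saline array 1 and array 1 at 10 µmol/kg, 24 of 79 members (30.4%, against 17.3% of all probes) were below all other 4 arrays, and 5 (6.33%, against 19.2%) were above them. The share below was 18 of 32 members at ranks above 1000 (56.2%, against 17.4% of non-members there). At ranks 1 to 1000 it was 6 of 47 (12.8%), under the 17.3% of all probes. Members at ranks above 1000 lay 0.25 below their own 6-array mean on saline array 1 and 0.27 below on array 1 at 10 µmol/kg in the median. On saline array 2 and the other array at 10 µmol/kg they lay 0.024 and 0.14 above it, and at 5 µmol/kg 0.35 and 0.14 above. The 5 members above were Rplp2, Rps15a, the brightest probe of Rpl23, and dim probes of Rps13 and Rps24. Among the lowest on the acinar-dim arrays were Rpl13a, whose protein can leave the ribosome to silence inflammatory mRNAs, at 353 and 445 there and 642 to 983 elsewhere, and a probe of Rpl31 at 403 and 404 there and 644 to 755 elsewhere.

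The related genes ranged from the detection limit to bright signals. Rpl36al, a paralog of Rpl36a, gave 4625 and 4210 in saline, 5381 and 5610 at 5 µmol/kg, and 4814 and 5743 at 10 µmol/kg, with all 4 cadmium arrays above saline. Rps27l, a p53-inducible paralog of Rps27, gave 2000 and 3256 in saline, 3637 and 3180 at 5 µmol/kg, and 2320 and 3212 at 10 µmol/kg, so the groups overlapped. Rpl22l1, a paralog of Rpl22, gave 7.66 and 6.49 in saline, where 1 array detected it, and 15.7 and 12.9 at 5 µmol/kg. It was not detected at 10 µmol/kg, where it was at least 1.14-fold lower than at 5 µmol/kg. Rpl22l1 would not have been kept without its detection at 5 µmol/kg. Rps19bp1 ranged from 24.1 to 75.5 over the arrays and Rpl3l, a muscle paralog of Rpl3, from 23.8 to 31.4. Rpl7l1 had a probe between 382 and 555 and a dim one detected on 2 arrays.

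Other parts of the translation machinery gave a setting for these values. Among 35 probes for 17 translation factors and other TOP genes, the median difference in level was 0.30 at 5 µmol/kg, 0.21 at 10 µmol/kg and −0.18 between the doses. At 5 µmol/kg 28 of the 35 were higher (80.0%, against 50.7% of all probes). An unadjusted p under 0.05 belonged to 9, all higher, where 9.99% of all probes had one, and none passed the test. Pabpc1, the poly(A)-binding protein whose own mRNA has a TOP start, gave 55.0 and 80.9 in saline, 370 and 230 at 5 µmol/kg, and 116 and 302 at 10 µmol/kg, all 4 above saline. Eef1a1, the elongation factor that delivers tRNA, had a probe at 18675 and 15746 in saline, 21394 and 21097 at 5 µmol/kg, and 18428 and 21948 at 10 µmol/kg. The 76 probes for 49 ribosome biogenesis genes had medians of 0.056, 0.014 and −0.075 in the same order. At 5 µmol/kg 11 of the 76, 8 higher and 3 lower, had an unadjusted p under 0.05, where 9.99% of all probes had one. Ddx21, a nucleolar helicase, was among the lower ones, at 541 and 319 in saline, 215 and 151 at 5 µmol/kg, and 262 and 200 at 10 µmol/kg.

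Mitochondrial ribosomal proteins, which build a separate ribosome, gave medians of 0.39, 0.090 and −0.30 over 106 probes for 73 genes. At 5 µmol/kg 90 of the 106 were higher (84.9%, against 50.7% of all probes). The 2 saline arrays differed from each other by a median of −0.50 (array 1 minus array 2), with 92 of the 106 higher on array 2. In median deviation from each probe's own 6-array mean, saline array 2 lay at 0.10, beside 0.30 and 0.16 at 5 µmol/kg. An unadjusted p under 0.05 belonged to 15 higher and 1 lower, where 9.99% of all probes had one. Between the doses 97 were lower at 10 µmol/kg, leaving 8.49% higher, against 49.4% of all probes. Mrps11 gave 105 and 156 in saline, 389 and 269 at 5 µmol/kg, and 154 and 232 at 10 µmol/kg. The plot of array deviations shows both acinar-dim arrays lowest for these genes, at −0.39 for saline array 1 and −0.24 for array 1 at 10 µmol/kg, as for cytosolic members at ranks above 1000. For the bright cytosolic members, at ranks up to 1000, all 6 arrays lay between −0.071 and 0.091.

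**Figure D5:**
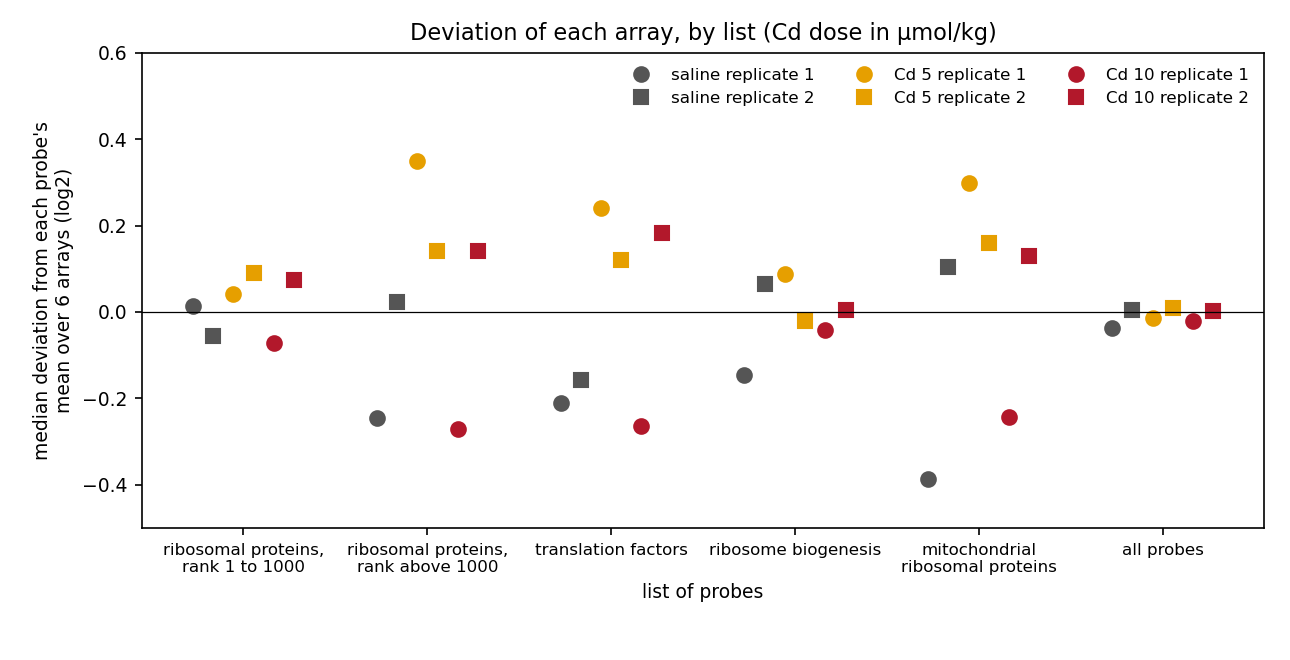
Median deviation of each array from each probe's own mean over the 6 arrays (log2, vertical axis), for 6 lists of probes (horizontal axis); colours give the group and shapes the replicate. Saline array 1 and array 1 at 10 µmol/kg are lowest for cytosolic members at ranks above 1000 (−0.25 and −0.27), the translation factors and the mitochondrial ribosomal proteins, and the deviations of bright members stay between −0.071 and 0.091.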

How the data were processed

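Total RNA of mouse spleen was measured on 6 Illumina bead arrays, grouped by their titles. The authors deposited 1 mean bead intensity per probe and array in a table described as not normalized. Its lowest intensity was −20.15, and the arrays, each sorted by value, agreed to within 0.243, so background subtraction and quantile normalization came before deposit; the software was not given in the labels or headers used here. A detection p-value per probe and array was also deposited. The deposited series matrix held the same intensities for 45279 of 45281 probes. Total brightness is thereby fixed, and the number of arrays limits the precision. All per-sample columns were mapped by name.

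Intensities were passed through neqc (limma 3.58.1, R 4.3.3; offset of 16, which understates changes of dim probes) to log2. A probe was kept if detected (p under 0.05) on at least 2 arrays. A linear model with 1 mean per group was fitted to all 6 arrays and 18960 probes (3 residual and 3.783 prior degrees of freedom), with moderated tests and Benjamini-Hochberg adjustment, threshold 0.05. Fit and calls were tested on simulated data. Rank is by mean level over all probes. Lists are described by counts and medians, with no test. Where a probe went undetected on both arrays of a group, the fold is a bound, from each array's lowest detected signal.

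Symbols came from the platform annotation, and all 65 genes were found in RefSeq by gene identifier. Rps23rg1 was placed among the related genes. Members named are the 5 with the smallest p per direction and comparison, those at the highest signal, the 2 brightest per class, the 3 genes with the widest range over probes, and the stalk and related genes; in other lists the 2 brightest and the 1 with the smallest p. Rpl13a, Rpl27a, Rpl28 and Rpl31 and the probes whose groups did not overlap were named after their values were seen. Members, lists and motifs were chosen with earlier results of these data known.

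Other settings changed the transformation, offset, filter, probe choice, arrays, variance model and number of highest probes, and added the acinar level or the replicate number. Replicates of the same number did not deviate together in all groups, so the numbers were not taken to pair the arrays.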

Additional observations from a re-analysis of the deposited data

How the results depend on the processing

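With 2 arrays a group, only large differences could pass: no member did in the main settings, and leaving out any 1 array gave 0 called members in each comparison. Those fits moved the member median between 0.136 and 0.261 at 5 µmol/kg, between −0.0593 and 0.227 at 10 µmol/kg, and between −0.237 and −0.0299 between the doses, so the direction at 10 µmol/kg depended on which array was kept (−0.0593 without array 2 at that dose, 0.227 without array 1, −0.0147 without saline array 1). The number of probes of any gene called was 0 at both doses against saline, and 0 to 1 between the doses. Without saline array 1 and array 1 at 10 µmol/kg, a fit with 1 residual degree of freedom called 662 probes at 5 µmol/kg, 518 at 10 µmol/kg and 4 between the doses, with 1 member, Rpl7a, in each comparison with saline (limma adjusted p 0.00734 and 0.0166) and member medians of 0.136, 0.0828 and −0.0299. At 10 µmol/kg against saline 1 probe, no member, was called with log2 of the deposited signal plus 16, with the series matrix, with the trended and robust variance model and with the acinar covariate. Between the doses 0 probes were called with 1 probe per gene, detection on all 6 arrays, an offset of 50, no filter, or the replicate block. With the replicate number as a block no probe was called at either dose against saline. The member medians are 0.21, 0.076 and −0.10 with and without the block by construction, since each number occurs once in every group. The correlation of the replicate difference was −0.264 between saline and 5 µmol/kg, 0.564 between saline and 10 µmol/kg, and −0.13 between the doses. A block with the numbers at 5 µmol/kg exchanged, chosen after seeing the data, called 0, 1 and 1 probes in the same order, none of them a member. With 1 probe per gene the SD over members was 2.88, 2.77 and 2.85 in saline, at 5 and at 10 µmol/kg. Member probes at the top of the scale numbered 14 among the 50 highest and 38 among the 200 highest. Of 1578 values of the named probes under other settings, 67 changed sign, none called before or after, and 61 of those came from leaving out arrays. The medians by rank with arrays left out were chosen after seeing the data.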
